A study of Mus musculus with 37 samples.

Results

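The genes described here are those whose names begin with Zfp and a number, Zbtb, Klf and a number, Zkscan or Zscan in a deposited transcript table of mouse myeloid cells. The name rule found 210 of the 6509 genes in the held table, and all 210 reached a value of 10 or more in at least 1 group: 188 Zfp, 12 Zbtb, 7 Klf, 1 Zkscan and 2 Zscan genes. The rule reads names only and used no measured value. RNA-seq was made from C57Bl6cJ mice in 5 cell types, namely adherent thioglycollate-elicited peritoneal macrophages, Percoll-purified bone marrow neutrophils, splenic dendritic cells (sDCs) enriched with magnetic beads, plus bone marrow cultures of mast cells and of eosinophils. Cells received no cytokine, IL-10 for 4 h, LPS for 4 h, or IL-10 and then, after 4 h, LPS for 4 h more. IL-10 and LPS were each given at 100 ng/ml. LPS (lipopolysaccharide) is a bacterial wall component that engages Toll-like receptor signalling. Eosinophils had the untreated and LPS groups only. Neutrophils came from pooled mice and were cultured overnight with GM-CSF, so all their groups share that cytokine. The table holds 1 value per group, the authors' mean of 2 replicates from independent mice, so within a cell type no spread between replicates can be given. The column totals of the 18 groups lay between 10207960 and 11499748, the depth of each library is not in the table, and the 1 T cell sample was not analysed here.

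Markers were checked before the genes of interest. The summed macrophage markers lay between 101982 and 229288 in macrophages and at most at 23017 elsewhere, and the mast cell markers lay between 370241.5 and 518824 in mast cells and at most at 8800 elsewhere. Most of the macrophage sum was Cd68 (77545.5 to 185724.5). Emr1 did not separate macrophages (13108 to 21201) from eosinophils (14338.5 untreated and 22514.5 with LPS). Ly6g, a neutrophil marker, was 161.5 in untreated neutrophils and 188.5 in untreated eosinophils. The dendritic cell markers did not separate sDCs (3 of 12 held, 4299 to 19491) from macrophages (5520.5 to 13909): untreated Itgax was 4075.5 in sDCs and 13861 in macrophages, while Dpp4 was 15226 and 17. The neutrophil markers summed to between 37278.5 and 290340 within neutrophils, with Mmp8 at 122455 untreated and 17265 with LPS, and the macrophage marker Emr1 was 4346 and 14667.5 in the same groups. The neutrophil columns also held B cell markers (3 of 6 listed genes held, sums 3122 to 4744), eosinophil markers (3 of 10 held, 27197.5 to 30791) and erythroid markers (6 of 8 held, 5697 to 10085.5). The sDC columns held T cell markers (2 of 8 held, 16235 to 18269.5, mostly Tcf7), B cell markers (1504 to 1778.5) and erythroid markers (1841 to 2699.5). The part of such cells in the values below was not tested. Because these are bulk samples, fewer cells of a type and less RNA per cell cannot be told apart. The study lists a TruSeq kit for the sDC libraries and for the second replicate in mast cells. For sDCs kit and cell type cannot be told apart. Each mast cell value averages that replicate with the first, and the part of the kit in mast cell differences from other cell types was not tested.

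C2H2 zinc fingers are small zinc-binding folds that read short DNA sequences. Most of the numbered Zfp genes encode arrays of such fingers, many joined to a KRAB domain that recruits the corepressor TRIM28 to silence chromatin. Zbtb proteins join zinc fingers to a BTB domain that dimerises and binds corepressors, and Klf proteins carry zinc fingers at the C terminus, which bind GC-rich and CACCC-type boxes and control differentiation and activation of blood cells. Not every gene with a Zfp name is a transcription factor: Zfp783 is annotated as a processed transcript, and Zfp473 is known for a part in histone mRNA processing. The name rule would take the Zfp36 family of RNA-binding proteins too, but it matched none of that family in the held table, and the family was not analysed here.

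Klf2, Klf4 and Klf8 were among the genes whose LPS change differed between cell types by a test given further on, so their promoters are shown. Each stretch runs 5′ to 3′ on the strand of the gene, from 270 bases before to 30 bases after the start of the gene's most abundant transcript (NCBIM37 genome, GENCODE vM1 starts), and capitals mark every CACCC or GC box (GGGCGG) on either strand and, in Klf2, the match to the MEF2 motif.
Klf8 (chrX:149793886-149794185, + strand): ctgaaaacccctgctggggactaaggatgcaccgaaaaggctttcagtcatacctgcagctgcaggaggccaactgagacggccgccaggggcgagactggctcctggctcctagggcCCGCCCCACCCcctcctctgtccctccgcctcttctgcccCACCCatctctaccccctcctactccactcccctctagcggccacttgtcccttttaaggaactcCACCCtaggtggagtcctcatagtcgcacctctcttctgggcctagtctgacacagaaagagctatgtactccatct
Klf4 (chr4:55545309-55545608, - strand): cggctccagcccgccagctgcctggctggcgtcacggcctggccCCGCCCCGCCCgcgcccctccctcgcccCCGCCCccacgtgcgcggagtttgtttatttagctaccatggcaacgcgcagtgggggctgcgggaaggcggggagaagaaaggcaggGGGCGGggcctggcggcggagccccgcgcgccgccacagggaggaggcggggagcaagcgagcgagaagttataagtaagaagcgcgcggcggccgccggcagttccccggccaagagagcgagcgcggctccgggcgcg
Klf2 (chr8:74842662-74842961, + strand): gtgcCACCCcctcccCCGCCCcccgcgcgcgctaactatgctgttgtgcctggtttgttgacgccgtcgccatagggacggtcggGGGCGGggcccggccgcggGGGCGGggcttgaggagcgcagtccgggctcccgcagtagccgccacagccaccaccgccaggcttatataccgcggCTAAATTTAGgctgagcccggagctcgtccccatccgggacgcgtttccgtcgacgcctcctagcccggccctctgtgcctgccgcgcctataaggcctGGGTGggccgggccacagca
The Klf8 stretch lies inside the annotated gene, whose outermost start is further upstream. Over 6492 promoters of all genes, 62.1% held CACCC and 59.8% held GGGCGG, and 3.2% held the MEF2 motif. Of the 7 Klf promoters, 4 held CACCC, 6 held GGGCGG and 2 held the MEF2 motif. The 188 Zfp promoters held GGGCGG in 41.5%, and 75% of the 12 Zbtb promoters held it. Of 4 other motifs searched on both strands, that of NF-kB stood in 53.3% of the 210 promoters and 65.3% of all, TTCNNNGAA (STAT) in 12.9% and 7.38%, that of the interferon response in 2.86% and 4.17%, and TGACGTCA (cAMP response) in 3.81% and 3.17%. The median ratio of observed to expected CpG was 0.652 in the 210 promoters and 0.716 over all genes, with 0.806 in Zbtb and 0.813 in Klf promoters. Such matches describe letters, not bound sites.

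Untreated cells differed in which of these genes they expressed most. A gene's value is the sum of its transcripts' normalised tag counts, and values are compared between cell types for 1 gene at a time. Of the 210 genes, 95 (45.2%) were highest in untreated mast cells, against 25.2% of all 6509 genes. In sDCs 53 (25.2%) were highest, against 20.1% of all genes. The counts were 28 (13.3%) in macrophages, 20 (9.52%) in eosinophils and 14 (6.67%) in neutrophils. The shares of all genes were 24.5%, 17.6% and 12.6% in the same order. A stricter description asks that every group of a cell type lie above every group of all other cell types. In mast cells 45 genes (21.4%) did so, against 12.4% of all genes, and they included 5 of the 12 Zbtb genes (Zbtb4, Zbtb20, Zbtb38, Zbtb39 and Zbtb41). In sDCs 21 genes (10%) did so (10.1% of all genes), in eosinophils 13 (10.1%), in macrophages 7 (9.69%) and in neutrophils 2 (3.81%). In the other direction, every macrophage group lay below every other group for 31 genes (14.8%, against 8.83% of all genes), and the same count was 16 in neutrophils (3.33% of all genes), 12 in eosinophils (8.17%), 3 in mast cells (7.39%) and 2 in sDCs (7.24%). Eosinophils had 2 groups and the other cell types 4, so these counts are not on the same footing across cell types. For sDCs kit and cell type cannot be told apart, and the part of the kit in the mast cell counts was not tested.

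**Figure D1:**
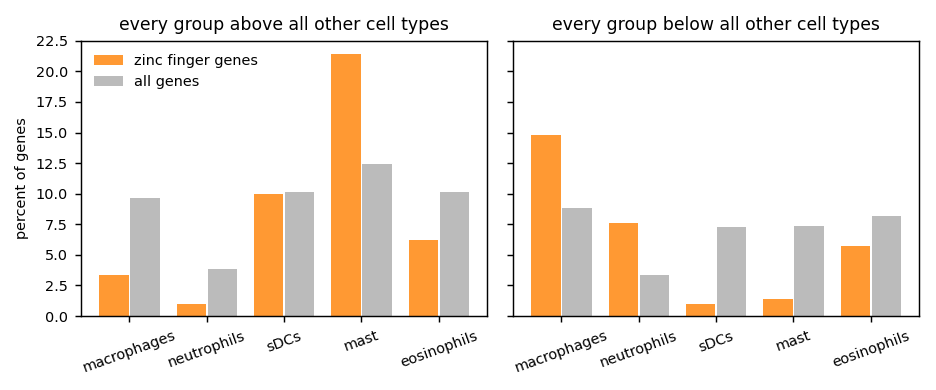
Percent of the 210 zinc finger genes (orange) and of all 6509 genes (grey) for which every group of a cell type lay above (left) or below (right) every group of the other cell types. The mast cell bar on the left (21.4%) and the macrophage bar on the right (14.8%) are the tallest for the zinc finger genes.

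Several genes marked 1 cell type in all its groups. Klf1, the regulator of adult globin genes in red cell precursors, stood at 131 in untreated and 130 in LPS-treated eosinophils and at most at 8.5 in the other 16 groups. Zfp872 was held at 368 to 571.5 in the 4 sDC groups, was listed at 0 in all macrophage, neutrophil and mast cell groups, and was at 1 and 0 in eosinophils. Zfp334 lay between 52.5 and 85 in macrophages and at most at 1.5 elsewhere. These 3 genes, and Zfp521, Zfp809 and Zbtb16 below, all meet the naming rule of a 2-fold gap to every other cell type. Their lack of overlap therefore follows from the selection. Zfp521, which acts in blood progenitors, lay between 401 and 814 in mast cells and at most at 93 elsewhere. Zfp809, which recruits TRIM28 to silence retroviral DNA, lay between 903 and 1072.5 in sDCs and at most at 210 elsewhere. Zbtb16, known as PLZF and a regulator of innate-like lymphocytes, stood at 779 and 656 in eosinophils and at most at 266 elsewhere. Klf1 is itself on the erythroid marker list, of whose other genes Hbb-b2 stood at 798 and 812 in eosinophils and Hba-a1, Hba-a2 and Hbb-b1 at 2.5 to 8.5. The summed erythroid markers lay between 950.5 and 967.5 in eosinophils and between 5697 and 10085.5 in neutrophils. The part of erythroid cells in the Klf1 values was not tested.

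With LPS, more of these genes were lower than higher in macrophages, neutrophils, sDCs and mast cells. With no replicates within a cell type, a gene was counted as changed here when its value was at least 10 in either group and log2 of the ratio of values (1 added to each) was 1 or more in size. In macrophages 10 of 204 tested genes were higher and 37 lower, or 4.9% and 18.1%, against 12.6% and 14.7% of all genes, and the median log2 change was -0.39 against -0.15 over all genes. In neutrophils 4 were higher and 14 lower of 200 (8.71% and 7.83% of all genes), and in sDCs 7 were higher and 12 lower of 204 (8.98% and 11.5%). Mast cells had 0 higher and 4 lower of 197 (4.71% and 5.41%), and eosinophils 2 higher and 0 lower of 195 (2.16% and 0.702%). The share of higher genes was below the background in all 5 cell types, and the share of lower genes was above it in macrophages and not in the other 4. The labels do not give the time in culture of untreated cells, and any part of culture time in these changes was not tested.

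**Figure D2:**
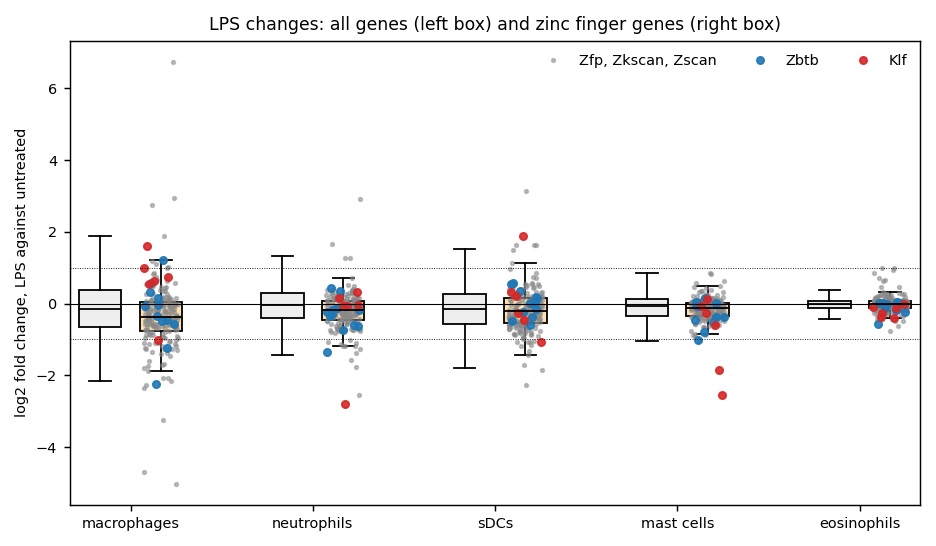
Log2 fold change of LPS against untreated for all genes (left box) and the zinc finger genes (right box, with points coloured by family) in each cell type. Boxes show the quartiles and median, whiskers the range without outlying points, and dotted lines mark 2-fold. The macrophage median is -0.39 for the zinc finger genes and -0.15 for all genes.

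Models of a pair of kinds were fitted over all genes with limma. The first asked for a change common to the cell types and took cell types as the replicates. It called 0 of 210 genes for LPS over 5 cell types (8 of 6506 genes, 0.123%, were called), 0 of 209 for IL-10 over 4 cell types and 0 of 209 for IL-10 under LPS (0% of all genes in both). At an unadjusted p under 0.05 there were 36, 19 and 21 genes, the 36 for LPS being 1 higher and 35 lower (7.35% and 14.2% of all genes). The 19 for IL-10 were 3 higher and 16 lower (3.62% and 6.43%), and the 21 under LPS were 9 higher and 12 lower (4.4% and 6.98%). The second was added after that result and the data had been seen. It gave each of the 4 cell types with IL-10 groups its own level, LPS term and IL-10 term over the 16 group means, so LPS with and without IL-10 served as the repeat (4 residual degrees of freedom, moderated over all genes). Its error is the departure from additive terms and not the spread between mice, and a gene whose LPS change depended on IL-10 gets a larger error. Time since IL-10 may differ between the IL-10 groups with and without LPS, and its part was not tested. By this additive fit, with Benjamini-Hochberg adjusted p under 0.05, with LPS 24 rose and 77 fell of 209 genes in macrophages (19.8% and 33.2% of all genes), 5 and 26 in neutrophils (14.2% and 17.3%), 27 and 42 in sDCs (16.3% and 26.9%), and 2 and 12 in mast cells (7.06% and 11.1%).

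Klf2, which restrains inflammatory activation of monocytes, moved in opposite directions between cell types. Its value in macrophages was 455.5 untreated, 417 with IL-10, 768.5 with LPS and 633 with both. In sDCs the same 4 values were 1277.5, 873.5, 613 and 446.5, and in mast cells they were 815.5, 1012.5, 224 and 421.5. Both LPS groups lay above both other groups in macrophages and below both in sDCs and mast cells. In the additive limma fit Klf2 rose by 0.68 ± 0.14 (SE, log2, adjusted p = 0.00613) in macrophages and fell by 1.01 ± 0.14 (adjusted p = 0.00181) in sDCs and by 1.56 ± 0.14 (adjusted p = 0.00143) in mast cells. Neutrophils held the highest values, 2786 to 3223.5, with an LPS term of -0.14 that did not pass, and eosinophils stood at 2269 untreated and 1708 with LPS. The macrophage and mast cell LPS terms differed by 2.24 ± 0.19.

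Klf4, a factor of monocyte differentiation, fell in neutrophils and mast cells. In neutrophils its values were 479 untreated, 473 with IL-10, 68 with LPS and 114 with both, and it fell by 2.42 ± 0.22 (log2, adjusted p = 0.0007, limma). In mast cells they were 28, 17, 4 and 3, and it fell by 2.35 ± 0.22 (adjusted p = 0.00157, limma) at low values. Macrophages did not share it: their values were 455, 462, 707 and 574, and the macrophage term exceeded that of neutrophils by 2.89 ± 0.30 (adjusted p = 0.0016, limma). In sDCs the values were 641, 400.5, 529 and 270, where the groups overlapped, and eosinophils stood at 1.5 and 0.

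Klf8, a repressor of the family, rose in sDCs and macrophages. In sDCs it stood at 608 untreated and 546 with IL-10, against 2252 with LPS and 1797 with both (1.8 ± 0.14, adjusted p = 0.00028, limma). In macrophages the 4 values were 143.5, 116.5, 439.5 and 339.5 (1.57 ± 0.14, adjusted p = 0.00027, limma). Neutrophils (72 to 107), mast cells (24.5 to 34.5) and eosinophils (92.5 and 86.5) showed no change past the test or past 2-fold. Klf10, induced by TGF-beta, fell in macrophages from 1597 untreated and 1770 with IL-10 to 784 with LPS and 1108.5 with both (-0.85 ± 0.15), and in sDCs by 0.52 ± 0.15. Neither Klf10 term passed with the highest transcript per gene (adjusted p = 0.134 and 0.295, limma), and the one in sDCs did not pass with centring. Klf3, which recruits the CtBP corepressor, rose in macrophages by 0.80 ± 0.10, from 929 and 1068.5 to 1842 and 1632. Klf6, a broadly expressed member, ranged from 4777 to 15156.5 over the 18 groups and rose in macrophages by 0.40 ± 0.13 and fell in mast cells by 0.63 ± 0.13.

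**Figure D3:**
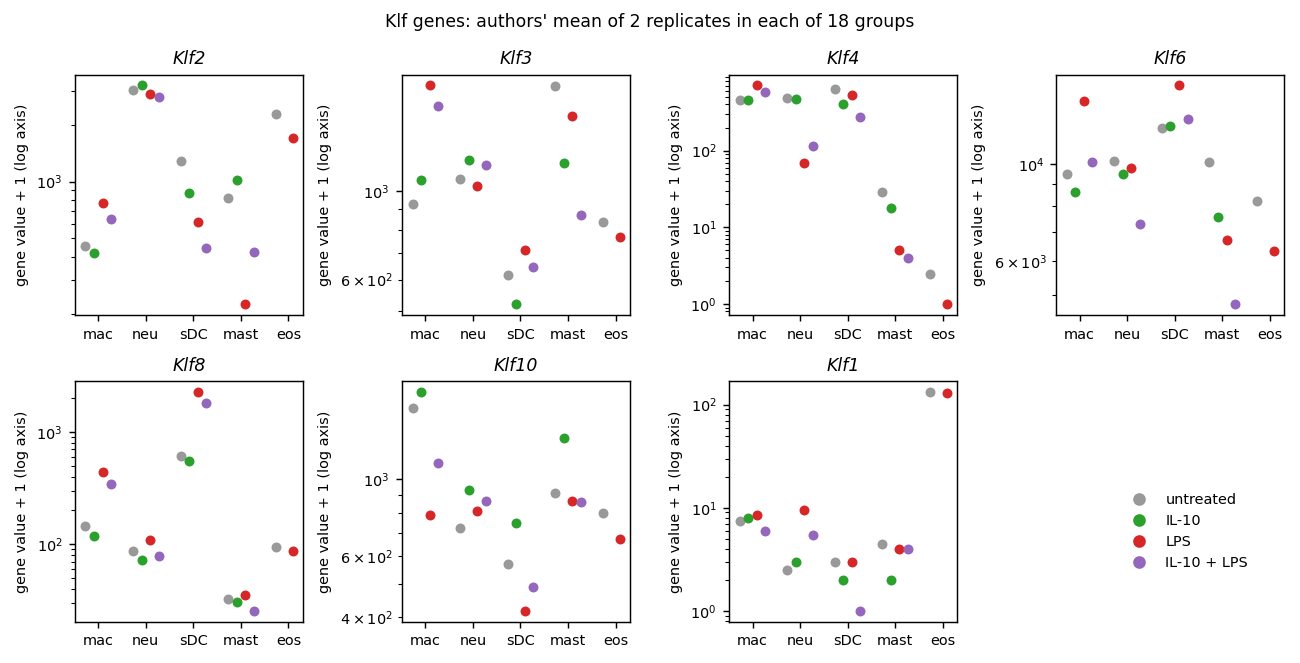
Gene value plus 1 on a log axis for the 7 Klf genes in macrophages (mac), neutrophils (neu), sDCs, mast cells and eosinophils (eos), with 1 point per group, each the authors' mean of 2 replicates and without an error. Klf4 drops with LPS in neutrophils and mast cells, and Klf8 is higher with LPS in sDCs and macrophages.

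With LPS, 8 of the 12 Zbtb genes had a log2 change below 0 in macrophages (58.6% of all genes), 10 in neutrophils (52.8%) and 5 in sDCs (59.5%). Mast cells had 8 (60.1%), as did eosinophils (56.1%). Zbtb20, which in macrophages supports Toll-like receptor responses by repressing the NF-kB inhibitor gene Nfkbia, fell in all 4 cell types, with terms from -0.44 to -1.04. Its mast cell values were 7884 untreated, 4762 with IL-10, 3876.5 with LPS and 2286 with both, the highest of any cell type in every group. Zbtb42 fell in the same 4 cell types, most in neutrophils, from 1290 and 1242.5 to 509.5 and 513 (-1.31 ± 0.09, adjusted p = 0.00033, limma). Zbtb38, which binds methylated DNA, fell in macrophages from 1088 and 929.5 to 461.5 and 407 (-1.21 ± 0.10), fell in neutrophils and mast cells by 0.62 ± 0.10 and 0.61 ± 0.10, and rose in sDCs by 0.35 ± 0.10. Zbtb4, also a methylated-DNA binder, fell in macrophages, neutrophils and mast cells. Zbtb16 fell in macrophages at low values, from 27.5 and 23 to 5 and 4.5 (-2.19 ± 0.18). Zbtb5, a repressor of the cell cycle inhibitor gene Cdkn1a, rose in macrophages from 249.5 and 275.5 to 576 and 444 (0.95 ± 0.13), and in sDCs by 0.45 ± 0.13, which did not pass with the highest transcript. Zbtb39 rose in macrophages by 0.60 ± 0.10 and fell in neutrophils by 0.39 ± 0.10. Of the remaining Zbtb genes, Zbtb12, Zbtb41 and Zbtb49 passed in 1 cell type each, with terms of 0.52 in macrophages, -0.50 in neutrophils and 0.63 in sDCs (the last not passing with the highest transcript), and Zbtb2 and Zbtb22 passed in none of the 4.

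**Figure D4:**
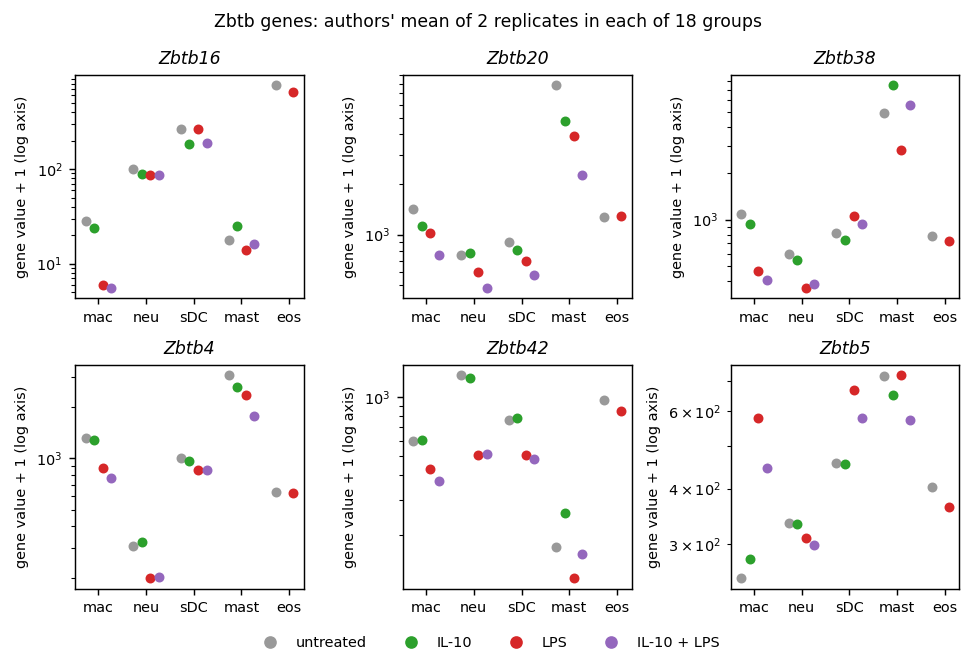
Gene value plus 1 on a log axis for 6 Zbtb genes by cell type and treatment, with 1 point per group, each the authors' mean of 2 replicates and without an error. In mast cells Zbtb20 is lower and Zbtb38 higher with IL-10, with and without LPS.

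The Zfp genes make up 188 of the 210. Zfp811 went from 1 untreated and a listed 0 with IL-10 to 213 with LPS and 73 with both in macrophages, and from 9 and 10 to 86.5 and 61 in sDCs. It was the 1 gene of 210 past 2-fold higher in 3 or more cell types (neutrophils 1 to 14), against 3.87% of all genes. Past 2-fold lower in 3 or more were 2 genes, Zfp273 and Zfp652 (2.74% of all genes). The additive term of Zfp811 was 6.48 ± 0.58 in macrophages and 2.81 ± 0.58 in sDCs, with the neutrophil term of 1.75 not passing. Its fold from values near 0 depends on the added 1. Zfp811 lies at chr17:32934351-32937883 in a run of 8 neighbouring genes of the set. The median log2 LPS change of this run in macrophages was 0.012, and Zfp472 is named as 1 example that did not share the direction of Zfp811. Zfp800 stood at 475 and 460 without LPS and at 3194 and 1916 with LPS in macrophages (2.40 ± 0.16, adjusted p = 0.00011, limma), and its macrophage term exceeded that of sDCs by 2.12 ± 0.23. Zfp353 rose in macrophages from 683 and 731 to 2528 and 2229.5 (1.75 ± 0.14). Zfp783, the processed transcript, rose in sDCs from 95.5 and 81 to 298.5 and 253.

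Zfp652, which acts with the corepressor CBFA2T3, was lower with LPS in every cell type. Its untreated and LPS values were 1250 and 451.5 in macrophages, 2386 and 798.5 in neutrophils, 1178 and 439 in sDCs, 2765.5 and 1435.5 in mast cells, and 1988.5 and 1410 in eosinophils. In the additive limma fit it fell in all 4 cell types tested, with terms from -0.92 to -1.33 and an SE of 0.22. In the common-change fit its mean was -1.18 ± 0.19 over 5 cell types with an adjusted p of 0.131 (limma), the lowest of the 210 genes, so the change did not pass there. Zfp385a, a p53 cofactor, fell in sDCs alone among the 4, from 1082.5 and 888.5 to 298.5 and 322.5 (-1.66 ± 0.12), and the neutrophil term exceeded the sDC term by 1.65 ± 0.17. Zfp831 fell in neutrophils from 715.5 and 636 to 120.5 and 166.5 (-2.24 ± 0.34) and in sDCs by 1.32 ± 0.34. Zfp667 fell in macrophages from 62.5 and 57 to 18 and 12.5, while its mast cell values of 303 and 229 without and 533.5 and 307.5 with LPS did not pass. Zfp273 and Zfp937 fell in macrophages by 1.73 ± 0.28 and 1.69 ± 0.29. Below 0 in all 5 cell types for LPS against untreated were 40 of 189 genes with a value in each (18.1% of all genes), and above 0 were 5 (8.6%).

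The LPS comparison could be repeated on groups that share no column, by setting IL-10 plus LPS against IL-10. IL-10 alone is listed for 4 h, while in the combined groups 4 h of LPS followed 4 h of IL-10. Time since IL-10 may therefore differ within this second pair, and its part was not tested. In macrophages 6 of 10 higher genes were past 2-fold again (6 of the 8 so called in the second pair, 9.95% of all genes), and 15 of 35 lower genes (15 of 20, 12.4%). For all genes the shares repeated were 66.4% and 66.2%. In neutrophils 1 of 2 higher and 5 of 13 lower genes were called in both pairs (second pair 2 and 6, 5.83% and 5.59% of all genes), where 52.7% and 53.0% of the genes called in the whole table repeated, and in sDCs 4 of 7 and 3 of 12 (second pair 4 and 3, 7.65% and 9.3%), where 71.7% and 64.2% repeated. In mast cells 3 of 4 lower genes, which were Klf2, Klf4 and Zbtb20, were called in both (second pair 0 higher and 6 lower, 3.61% and 4.88%), where 55.6% of all lower genes repeated. A gene at low values shows a case that did not repeat. Zfp640, chosen after its values were seen, stood at 31.5 in untreated macrophages, was listed at 0 with LPS, and was at 13.5 with IL-10 and 14 with IL-10 plus LPS.

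**Figure D5:**
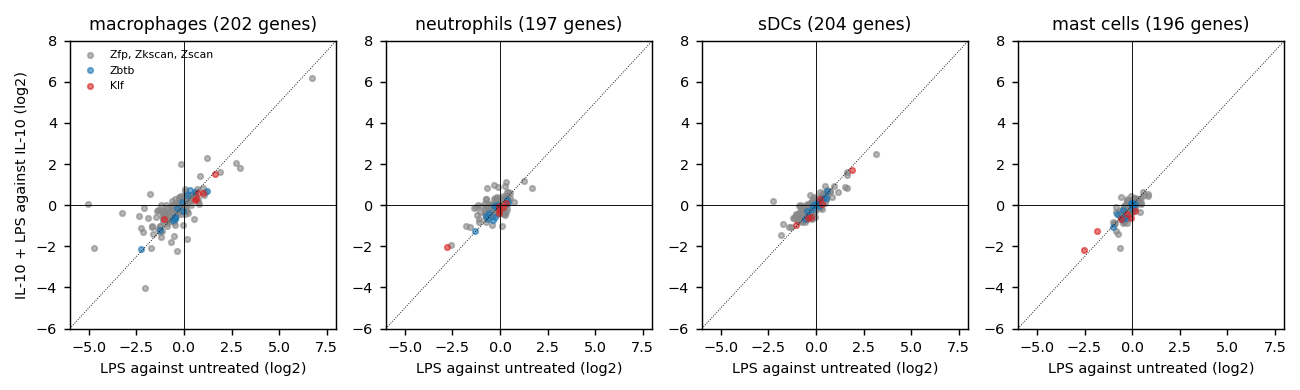
Log2 fold change of LPS against untreated (horizontal) and of IL-10 plus LPS against IL-10 (vertical) for the zinc finger genes in the 4 cell types with IL-10 groups, with a dotted line of equal change. Klf8 at 1.89 and 1.72 in sDCs lies near the line, and Klf4 at -2.80 and -2.04 in neutrophils fell less in the second pair. Past 2-fold in both pairs were 4 of 7 higher and 3 of 12 lower genes in sDCs. In neutrophils these were 1 of 2 and 5 of 13.

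The LPS terms differed between the 4 cell types for 62 of 209 genes, or 29.7%, by the F-test of the additive limma fit, against 49.5% of all genes. Klf2, Klf6, Zbtb38 and Zbtb39 had passing LPS terms of both signs.

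Few of these genes changed with IL-10, and the IL-10 terms that passed the additive fit, which average IL-10 with and without LPS, were in mast cells. IL-10 alone was not tested within a cell type, and the common-change fit of IL-10 against untreated called 0 of 209 genes. By 2-fold, IL-10 against untreated gave 0 higher and 4 lower genes of 204 in macrophages (2.02% and 1.84% of all genes), 1 and 1 of 199 in neutrophils (1.12% and 0.652%), 0 and 0 of 203 in sDCs (1.46% and 0.723%) and 0 and 2 of 197 in mast cells (2.14% and 2.67%). In the additive limma fit 0 of 209 passed for IL-10 in macrophages, neutrophils and sDCs, with 16, 10 and 10 at an unadjusted p under 0.05. The share of all genes passing in these 3 cell types was also low, 0.108% and 0.0308% higher and lower in macrophages, 0.0462% and 0% in neutrophils and 0.123% and 0.0154% in sDCs. In mast cells 3 rose and 4 fell (4.69% and 4.23% of all genes). With the highest transcript per gene in place of the sum, 3 of these 7 passed, and Klf2, Zbtb42, Zbtb4 and Zfp161 did not. Zbtb38 rose by 0.79 ± 0.10 (adjusted p = 0.0093, limma), its values being 4919.5 and 2844 without and 7521.5 and 5556.5 with IL-10. Klf2 rose by 0.61 ± 0.14, its log2 change being 0.31 without and 0.91 with LPS, and Zbtb42 by 0.49 ± 0.09. Zbtb20 fell by 0.74 ± 0.09 (adjusted p = 0.00966, limma) and Klf3 by 0.73 ± 0.10, from 1838.5 and 1541.5 to 1177.5 and 870.5. Zbtb4 fell by 0.32 ± 0.07, as did Zfp161, also called Zbtb14 and named after its values were seen, by 0.30 ± 0.07.

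Under LPS, IL-10 plus LPS against LPS gave 10 higher and 5 lower genes of 199 in macrophages (2.94% and 4.3% of all genes), 3 and 1 of 200 in neutrophils (2.96% and 3.71%), 1 and 1 of 203 in sDCs (2.4% and 2%) and 0 and 2 of 197 in mast cells (2.78% and 4.55%). These counts share the LPS column with the LPS comparison. In macrophages Zfp955b stood at 25 with LPS and 84.5 with both, Zfp558 at 50.5 and 141, Zfp248 at 11 and 30.5, and Zfp811 at 213 and 73. In neutrophils Zfp473 stood at 51.5 untreated, 114.5 with IL-10, 41.5 with LPS and 228.5 with both, so both IL-10 groups were the higher ones, with an additive term of 1.79 ± 0.48 that did not pass. Zfp955b has a near-identical neighbour, Zfp955a, and how tags were shared between such copies is uncertain.

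Many of these genes lie side by side. With a gap of at most 100000 bases, 122 of the 210 lay in runs of 2 or more, 119 of them Zfp genes and 0 of them Klf or Zbtb genes, and 20 runs held 3 or more. Runs were counted among the held genes of the set only, so neighbours missing from the held table are not seen. No share of all genes in runs was computed. Chromosome 17 held 40 and chromosome 13 held 33, with the longest run of 14 genes at chr13:67139530-67654065. For macrophages with LPS the median log2 change was -0.51 over 120 genes in runs (1 higher, 26 lower) and -0.14 over 84 genes outside them (9 higher, 11 lower). The lower share was 21.7% in runs and 13.1% outside, and of all genes 12.6% were higher and 14.7% lower. All tested Klf and Zbtb genes fell outside runs, with medians of 0.69 and -0.21, and the part of family in this contrast was not tested. The contrast is a description, since neighbours may share sequence and tags. Of 17 listed corepressor partners of KRAB and BTB proteins 9 were held, and by 2-fold Bcor alone changed with LPS, higher in macrophages. That is 1 of 9, against 12.6% of all genes. Bcor also went from 4012 untreated to 7609 with LPS in mast cells, short of 2-fold. Of 40 other C2H2 regulators 20 were held, and with LPS the higher ones numbered 7 of 19 for macrophages (12.6% of all genes), 5 of 20 for neutrophils (8.71%) and likewise 5 of 20 for sDCs (8.98%), while mast cells had 1 of 17 (4.71%) and eosinophils 0 of 17 (2.16%). Ikzf4 was among the higher in macrophages, neutrophils and sDCs and was the 1 lower gene in mast cells.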

How the data were processed

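RNA-seq reads were aligned by the authors to Ensembl transcripts of mm9 with RSEM 1.2.1 and Bowtie 0.12.9, and tag counts were normalised for GC content with EDASeq. The deposited values are a score: the authors' mean of 2 replicates per group, in steps of 0.5, with the same maximum of 185338 in all 18 columns. No replicate, spread or depth is held, so no counting interval is given. The held copy had 17015 complete lines and 1 broken off, and 22 lines (0.129%) without a gene name were left out.

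Transcripts were summed per gene name (16993 transcripts, 429 of them of the 210 genes). Changes are log2 of value plus 1. limma 3.58.1 in R 4.3.3 was fitted to all genes, and scripts ran in Python 3.11.15, tested on simulated data. The common-change fits were planned. After they called 0 of the genes, the additive fit was added. Its adjusted p-values and those of its F-test therefore come from a model chosen with the results in view. The members and lists were also chosen with earlier results of these data known. Named were all Klf genes, Zbtb genes reaching 50, the genes with the largest 2-fold LPS or IL-10 changes per cell type and reaching 50, genes called alike in most cell types, genes set apart in 1 cell type by 2-fold, and genes passing a common-change fit (41 in all). Alternatives were a pseudocount of 10, a minimum of 50, the highest transcript per gene, centring on the median of all genes and leaving out a cell type. All 210 genes matched the NCBIM37 annotation by the identifier of their highest transcript.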

Additional observations from a re-analysis of the deposited data

Results flagged for a closer look

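The LPS change differed between macrophages, neutrophils, sDCs and mast cells for 62 of 209 genes (29.7%, against 49.5% of all genes) by the F-test of the additive limma fit (Benjamini-Hochberg adjusted p under 0.05), which was added after the data had been seen. Among the genes named by rule, the adjusted p of that limma F-test was, for Klf genes, Klf2 (0.00143), Klf3 (0.00449), Klf4 (0.0018), Klf6 (0.0133) and Klf8 (0.00188). For Zbtb genes the adjusted p of the limma F-test was Zbtb12 (0.0184), Zbtb16 (0.00285), Zbtb20 (0.0274), Zbtb38 (0.0018), Zbtb39 (0.00822), Zbtb4 (0.0286), Zbtb41 (0.0465), Zbtb42 (0.00997), Zbtb49 (0.0469) and Zbtb5 (0.011). For Zfp genes the adjusted p of the limma F-test was Zfp353 (0.00212), Zfp385a (0.00142), Zfp472 (0.00657), Zfp473 (0.0193), Zfp667 (0.00429), Zfp783 (0.0226), Zfp800 (0.0020), Zfp811 (0.00855) and Zfp831 (0.0119). Klf2, Klf6, Zbtb38 and Zbtb39 had passing LPS terms in both directions. The error of this test is the departure from additivity between group means and not the spread between mice, and the part of other cell types in these differences was not tested.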

How the results depend on the processing

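No paired analysis was possible because the table holds 1 mean per group and no replicate, and for the same reason no replicate could be left out. The 3 common-change fits called 0 of the genes under all alternatives and without each cell type. Counts of genes past 2-fold with LPS moved by over 1.5 times in neutrophils (18 to 10 with a pseudocount of 10 and to 10 with a minimum of 50), mast cells (4 to 7 with the highest transcript per gene and to 2 with centring) and eosinophils (2 to 0 with a pseudocount of 10 and to 0 with a minimum of 50). With IL-10 in both arms, chosen after seeing the data, the LPS counts were 30 in macrophages, 8 in neutrophils and 7 in sDCs, against 47, 18 and 19. For IL-10 against untreated, a pseudocount of 10 gave 1 in macrophages, 1 in neutrophils and 0 in mast cells, a minimum of 50 gave 0, 1 and 0, the highest transcript gave 13 in macrophages, 5 in neutrophils and 8 in sDCs, and centring gave 1 in neutrophils, against 4, 2, 0 and 2 in macrophages, neutrophils, sDCs and mast cells. For IL-10 plus LPS against LPS, a pseudocount of 10 gave 8, 1, 1 and 1 in the same order, a minimum of 50 gave 6, 1, 1 and 1, the highest transcript gave 8, 7 and 9 in neutrophils, sDCs and mast cells, and centring gave 4 in sDCs, against 15, 4, 2 and 2. In the additive fit, the LPS count in mast cells was 22 with a pseudocount of 10, against 14, and the IL-10 count in mast cells was 3 with the highest transcript, against 7. The cause of these moves was not tested. Of 54 2-fold calls of named genes, 13 were no longer past 2-fold with a pseudocount of 10, 4 with the highest transcript and 5 with centring. With IL-10 in both arms, 24 LPS calls were past 2-fold again, 10 were not, and 2 turned, both macrophage falls: Zfp640 to 0.049 and Zfp955b to 0.54 (log2). Of 65 passing terms of named genes in the additive fit, 12 did not pass with the highest transcript and 1 with centring, with no change of sign in these settings. Small counts and genes near a value of 10 are the least certain, and depth could not be assessed.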
